A study of Homo sapiens with 12 samples.

Results

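The 46 genes described here encode nuclear subunits and assembly factors of respiratory complex I in MG63 cells, an established line from a human osteosarcoma. They were chosen by name from the 50868 genes of a table of read counts. Of 107 rows whose names start with NDUF, 57 pseudogenes and 4 antisense or read-through genes were left out, and every remaining gene is a member. All 46 passed the filter on low counts in the comparisons below. The study made 12 RNA-seq libraries in 4 groups of 3. In the compound experiment the cells received vehicle or 1 µM anticarin-beta and were harvested at 18 hours. In the siRNA experiment the cells received a control siRNA (Allstar) or an siRNA against CCT4 and were harvested at 2 days. All groups are the same line in the same medium, and the labels name neither clones nor separate cultures, so the p-values speak of the spread between libraries alone, and that spread may be technical. CCT4 is a subunit of the chaperonin that folds actin and tubulin in the cytosol.

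Complex I is the entry point of the mitochondrial respiratory chain. Its hydrophilic arm, in the matrix, takes electrons from NADH and passes them through a row of iron-sulphur clusters to ubiquinone, and its membrane arm pumps protons. The core subunits do the chemistry, the supernumerary subunits surround and stabilise them, and the assembly factors help to build the complex without staying in it. The core of the membrane arm is encoded in mitochondrial DNA and everything else in the nucleus.

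Library totals ran from 13393750 to 17492095 counts, at which 3 counts in a library correspond to 0.172 to 0.224 CPM (counts per 1000000 counts). Levels are given below in CPM after scaling by the trimmed mean of M-values (TMM). Vehicle library 1 stood apart, with a chi-square per degree of freedom of 27.8 and 29.7 against the other vehicle libraries, where the other replicate pairs gave 9.35 to 15. COL1A1, COL1A2, SPARC and VIM, which mark mesenchymal and bone-forming cells, were present at group means of at least 316 CPM and RUNX2 at 3.74 to 18.1 CPM. The group means of the epithelial gene EPCAM were at or below 0.142 CPM and those of the leukocyte gene PTPRC at or below 1.80 CPM, and CD3E had no count. The keratin KRT8 was against its place on the list of absent markers, with means of 44.5 to 47.2 CPM in all 4 groups. Mitochondrially encoded transcripts took 4.87% ± 0.20 of counts with vehicle and 1.27% ± 0.10 with anticarin-beta (SD, n = 3), and 2.20% ± 0.11 with control siRNA against 1.24% ± 0.01 in the libraries labelled CCT4 siRNA. The mitochondrial share was lower in both comparisons, while the nuclear genes described below were more often called lower in the first and higher in the second, and its part in those changes was not tested.

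YY1, NRF1 and GABPA are known to bind promoters of nuclear respiratory genes, and windows with their motifs are shown because they occur in genes that fell and in genes that did not. RefSeq windows on GRCh38.p14 from 250 bases before to 50 bases from a transcript start were at hand for 38 of the 46 genes, and both strands were searched. Of the 38 genes, which had 48 windows in all, 21 held at least 1 of the 3 motifs and 17 held none. The letters AANATGGCG, bound by YY1, were found in 11 of 38 genes (28.9%), against 3.85% of 27305 genes with a window and 7.5% of the 10942 genes that were also tested. In 9 of the 11 the ATG inside the letters is an annotated start codon, so there the letters overlap the start of translation. The windows of 30 bases around them are given here 5′ to 3′ on the strand of the gene, with the YY1 letters in capitals. The first 5 belong to genes that fell with anticarin-beta, and the next 3 to genes that were not called in that comparison. NDUFV2 and NDUFS1, which fell, have the letters on the reverse strand, and in NDUFV2 the ATG read on the strand of the gene is the start codon. NDUFS8, whose letters lie 180 bases before the start and which was not called with anticarin-beta, is not printed.
NDUFA6 (chr22:42090728-42090757, minus strand): atgctttggcAAGATGGCGgggagcggcgt
NDUFA7 (chr19:8321342-8321371, minus strand): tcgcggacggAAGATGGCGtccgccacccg
NDUFA9 (chr12:4649114-4649143, plus strand): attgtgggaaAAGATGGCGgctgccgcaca
NDUFS3 (chr11:47579079-47579108, plus strand): gcatctgagtAACATGGCGgcggcggcggt
NDUFS6 (chr5:1801405-1801434, plus strand): ccagcggcgcAAAATGGCGgcggcgatgac
NDUFS4 (chr5:53560650-53560679, plus strand): tgcctgcagcAAGATGGCGgcggtgtcaat
NDUFS7 (chr19:1383914-1383943, plus strand): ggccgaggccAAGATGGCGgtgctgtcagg
NDUFB8 (chr10:100529835-100529864, minus strand): gaagaaggtgAAGATGGCGgtggccagggc
NDUFV2 (chr18:9102719-9102748, plus strand): gggaaggtgaacagtgtggccCGCCATGTT
NDUFS1 (chr2:206159410-206159439, minus strand): tagccgaggcCGCCATATTgaataagcgac

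The motif of NRF1, whose letters are the capitals in the next windows, was found in 7 of 38 genes (18.4%), against 6.98% of all genes with a window and 12.2% of those tested. Windows with the NRF1 letters in capitals follow. They lie upstream of the transcript start in NDUFB4 and NDUFA11 and run across it in NDUFA8 and NDUFAF5. NDUFA8, NDUFAF5 and NDUFB4 fell with anticarin-beta and NDUFA11 rose.
NDUFA8 (chr9:122159764-122159793, minus strand): gttgccggatGCGCATGCGCaggcgccgtg
NDUFAF5 (chr20:13785014-13785043, plus strand): agccgcgctgGCGCATGCGCacaaaaagcg
NDUFB4 (chr3:120596167-120596196, plus strand): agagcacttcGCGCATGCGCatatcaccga
NDUFA11 (chr19:5903869-5903898, minus strand): ccggtccccgGCGCGTGCGCgcgatccatg

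The letters CCGGAAG, bound by GABPA, were found in 6 of 38 genes (15.8%), against 12.2% of all genes with a window and 20.7% of those tested. Among genes with a window, the YY1 letters were held by 7 of 19 that fell with anticarin-beta, 4 of 15 not called and 0 of 4 that rose. In the siRNA comparison they were held by 5 of 14 that rose and 6 of 23 not called. A match is a stretch of letters and not a measured binding site.

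With anticarin-beta, hydrophilic-arm subunits and assembly factors were called on the lower side alone, and membrane-arm subunits on both sides. Of the 46 genes, 23 fell and 6 (13.0%) rose at an adjusted p under 0.05, by edgeR's quasi-likelihood test with Benjamini-Hochberg adjustment. Over all 17717 genes tested, 38.0% were lower and 34.9% higher, 73.0% in all. The share of members that fell stood above that background and the share that rose below it. The median log2 fold change was −0.38 over the members and −0.06 over all genes tested. The quartiles were −0.93 and 0.08 for the members and −1.04 and 0.83 for all genes. Falls of over 2-fold were no more frequent than in the whole table, with 10 members (21.7%) against 24.8% of genes. The 3 libraries of each group did not overlap for 23 members on the lower side and 4 on the higher side, against 38.8% and 35.8% of all genes. In bulk RNA, a lower level in every cell and a loss of the transcript from some cells cannot be told apart.

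The scaling sets how many members count as higher. RLE scaling gave 8 higher and 21 lower members, where 36.6% of all genes were higher and 36.5% lower. Upper-quartile scaling gave 3 higher and 27 lower members, where 31.9% of all genes were higher and 41.4% lower. Scaling by library totals alone gave 1 higher, NDUFA11, and 36 lower, where 24.2% of all genes were higher and 50.6% lower, and it moved the median of all genes to −0.48. Relative to the median of all genes, the members' median was −0.32 under each of the 4 scalings. A change of scaling shifts all genes by nearly the same amount, so this value could hardly differ between scalings. Without vehicle library 1, 8 members were higher and 22 lower, with a median of −0.35.

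**Figure D1:**
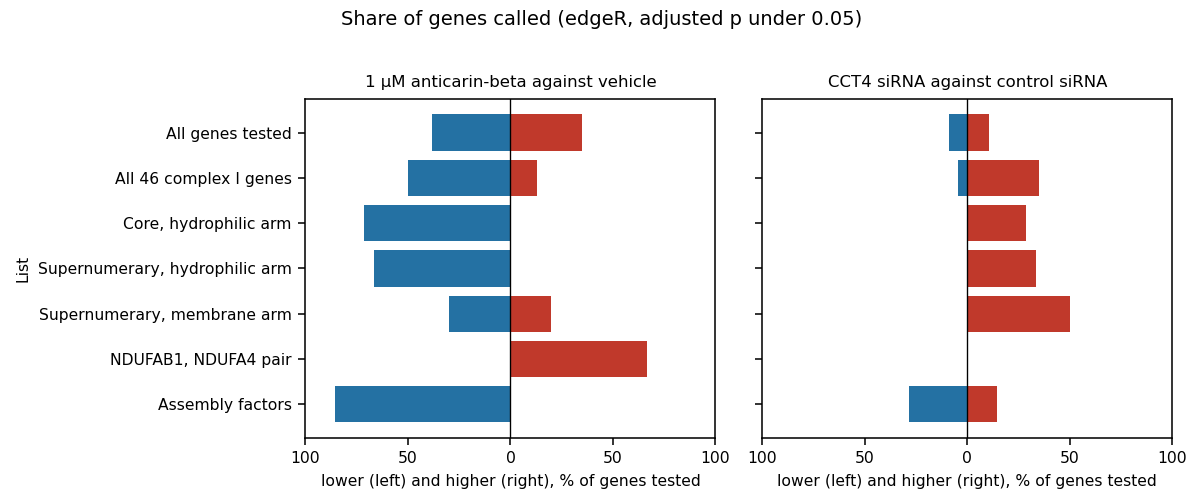
Share of genes called lower (left of 0) and higher (right of 0) by edgeR at an adjusted p under 0.05, in percent of the genes tested, for all genes, all 46 complex I genes and 5 lists by role, in the compound comparison (left) and the siRNA comparison (right). With anticarin-beta the hydrophilic-arm lists and the assembly factors have bars on the lower side alone, and in the siRNA comparison the 3 lists of arm subunits have bars on the higher side alone.

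Where 38.0% of all genes tested were lower and 34.9% higher, 11 of the 16 subunits of the hydrophilic arm fell and 0 rose. Their median log2 fold change was −0.69. None was higher at an unadjusted p under 0.05, by DESeq2 or by limma-voom either. Of the 7 core subunits of that arm, 5 fell.

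NDUFS3, a core subunit of the ubiquinone module, went from 25, 25.6 and 25.5 CPM to 11.4, 9.98 and 11.7 CPM. The groups did not overlap, and the fall was 2.30-fold (−1.20 ± 0.11 SE, adjusted p = 4.15e-07). Its exons overlap PTPMT1 on the same strand and CELF1 and KBTBD4 on the other, so its count is uncertain.

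At the NADH end, NDUFV2, which holds an iron-sulphur cluster beside the flavin, went from 67.9, 64.7 and 41.4 CPM to 28.8, 31.3 and 29.6 CPM (−0.96 ± 0.15 SE, adjusted p = 9.92e-05). The third vehicle library was the lowest of its group and still lay above the treated ones. The processed pseudogene NDUFV2P1, a near copy that can take its reads, moved with it, from 14.4 ± 2.05 to 7.58 ± 1.29 CPM (SD, n = 3). NDUFS1, the largest iron-sulphur subunit, went from 154 ± 6.63 to 94.2 ± 6.37 CPM (−0.71 ± 0.07 SE, adjusted p = 1.65e-06). NDUFV1, which binds NADH and the flavin, went from 55.7 ± 9.35 to 34.9 ± 2.31 CPM (−0.67 ± 0.13 SE, adjusted p = 0.000516).

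NDUFS7 and NDUFS8, which carry the last clusters before ubiquinone, did not pass the test. NDUFS7 was at 34.3, 32.1 and 31.1 CPM with vehicle and 30.7, 31.9 and 30.6 CPM with anticarin-beta. NDUFS8 was at 49.5, 47.8 and 48.4 CPM and then 44.4, 46.2 and 54.8 CPM. Both pairs of groups overlapped, and the 95% intervals of the log2 fold change ran from −0.25 to 0.12 for NDUFS7 and from −0.23 to 0.23 for NDUFS8. Under library totals both were called lower with the other 5 core subunits.

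Among the 9 supernumerary subunits of the hydrophilic arm, 6 fell, where 38.0% of all genes tested fell. Their median was −0.63. NDUFV3, a small subunit that sits beside the NADH-binding flavoprotein, stood at 40.9, 43.5 and 45 CPM with vehicle and 11, 9.24 and 9.54 CPM with anticarin-beta. It fell 4.34-fold with no overlap (−2.12 ± 0.11 SE, adjusted p = 1.78e-09), at chr21:42879644-42913304 on the plus strand. NDUFA9, at the joint between the arms, went from 63.6, 53.3 and 49.8 CPM to 23.6, 23.0 and 26.4 CPM, a fall of 2.28-fold (−1.19 ± 0.12 SE, adjusted p = 1.03e-06). Its exons overlap those of genes known by clone names on the same strand, so its count is uncertain. NDUFS6, a zinc-binding subunit added late in assembly, held 157, 109 and 93.0 CPM with vehicle and 69.4, 67.5 and 55.1 CPM with the compound. Vehicle library 1 was its highest value, and its log2 fold change was −0.90 ± 0.17 (SE, adjusted p = 0.000353) with that library and −0.67 without it. NDUFA7 fell 1.55-fold, from 29.5 ± 2.95 to 19.0 ± 2.67 CPM (adjusted p = 0.000495).

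The other members of that list were lower or near level. NDUFA6, a subunit that binds the acyl carrier protein, had a log2 fold change of −0.41 (adjusted p = 0.024), a call that was lost without vehicle library 3, anticarin-beta library 1 or anticarin-beta library 3. NDUFA5 had −0.74 (adjusted p = 0.0404) with overlapping groups, and the call was lost without vehicle library 1 or 2 or anticarin-beta library 2 or 3. NDUFA12 was at 25.3, 16.7 and 14.8 CPM with vehicle and 14.3, 14.3 and 10.5 CPM with the compound. Its groups did not overlap, but its adjusted p was 0.0649. NDUFA2 and NDUFS4 had log2 fold changes of 0.08 and 0.02 with overlapping groups, and under library totals both turned to −0.33 and −0.40 and were called lower. NDUFS4 and NDUFS7 hold the same YY1 letters at their start codons as NDUFA9, printed above. Whether the letters bear on any of these changes was not tested.

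**Figure D2:**
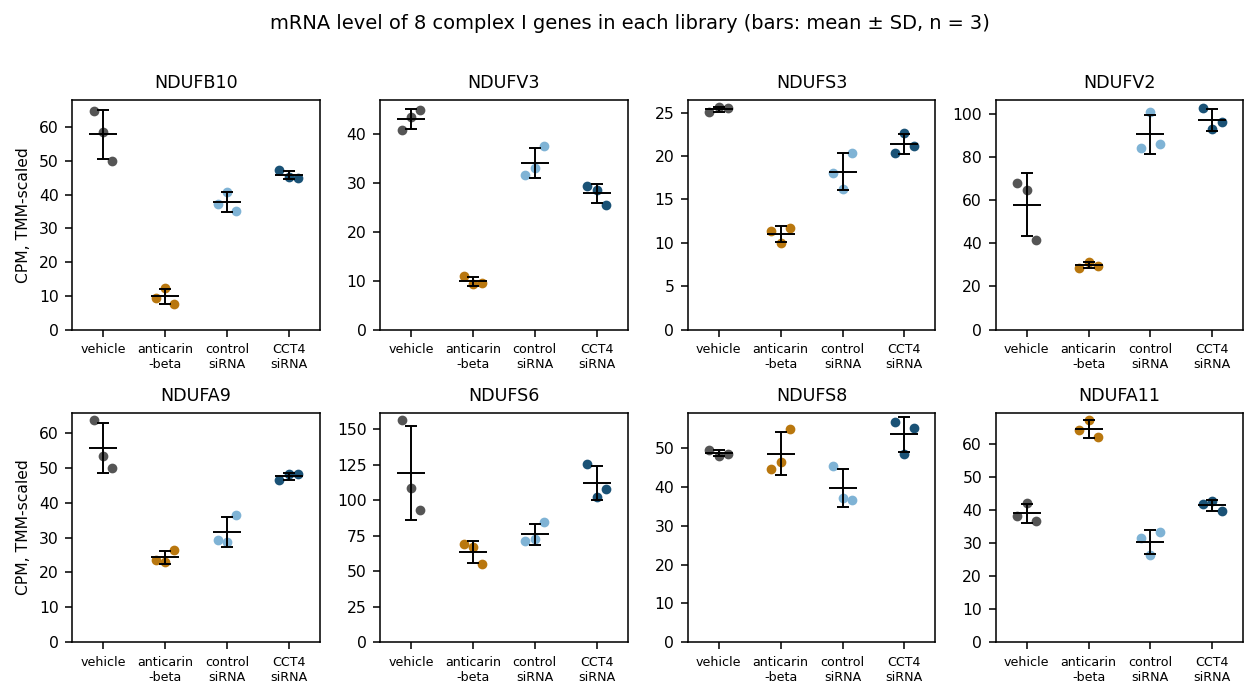
CPM, scaled by TMM, of 8 complex I genes in each of the 12 libraries, with points for libraries and bars for the mean ± SD of 3. NDUFB10, NDUFV3 and NDUFS3 sit lowest in the anticarin-beta libraries, NDUFA9 and NDUFS6 are low there and raised in the libraries labelled CCT4 siRNA, and NDUFA11 is highest with anticarin-beta.

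Of the 20 supernumerary subunits of the membrane arm, 6 were lower, 4 were higher and 10 were not called. Both called shares were below those of all genes tested, of which 38.0% were lower and 34.9% higher. The 20 subunits had a median log2 fold change of −0.003, which became −0.42 under library totals. Their range, from −2.57 to 0.73, spanned the largest fall and the largest called rise of all members.

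NDUFB10, a cysteine-rich subunit of the far end of the membrane arm, gave the largest fall. It stood at 64.7, 58.7 and 50.1 CPM with vehicle and at 9.48, 12.3 and 7.61 CPM with anticarin-beta. The groups were far apart, with a fall of 5.92-fold (−2.57 ± 0.15 SE, adjusted p = 8.21e-09). It is a short gene, at chr16:1959508-1961975 on the plus strand, and shares no exon with another gene. NDUFB9, which binds an acyl carrier protein in the membrane arm, went from 77.9, 82.3 and 48.8 CPM to 19.8, 11.5 and 25.3 CPM, 3.68-fold lower (−1.88 ± 0.26 SE, adjusted p = 2.53e-05). Its libraries scattered within both groups, and its exons overlap MTSS1 and TATDN1 on the other strand.

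NDUFA8 and NDUFB7 are, like NDUFB10, cysteine-rich proteins on the side of the intermembrane space. NDUFA8, at chr9:122144058-122159819 on the minus strand, held 43.0, 40.7 and 35.2 CPM with vehicle and 16.6, 14.7 and 15.9 CPM with anticarin-beta. This was a fall of 2.52-fold without overlap (−1.33 ± 0.10 SE, adjusted p = 1.05e-07). NDUFB7 went from 60.5, 54.4 and 51.0 CPM to 23.6, 28.2 and 25.4 CPM, 2.15-fold lower (−1.11 ± 0.14 SE, adjusted p = 9.56e-06). NDUFB4 and NDUFC2 made up the rest of the falls, at −0.58 (adjusted p = 1.98e-05) and −0.56 (adjusted p = 0.000312). A read-through gene, NDUFC2-KCTD14, shares exons with NDUFC2 on the same strand and was at 2.87 ± 2.74 and 1.38 ± 0.197 CPM (SD, n = 3).

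NDUFA11, a membrane subunit at the contact with the next complex of the chain, rose. It stood at 38.3, 42.2 and 36.7 CPM with vehicle and at 64.3, 67.6 and 62.2 CPM with anticarin-beta, 1.65-fold higher without overlap (0.73 ± 0.09 SE, adjusted p = 1.4e-05). It lies at chr19:5891276-5904006 on the minus strand, and its exons overlap those of a protein-coding gene on the same strand and of an antisense gene, both known by clone names, so its count is uncertain. NDUFB11 went from 63.8, 57.1 and 52.6 CPM to 73.5, 83.9 and 88.0 CPM (0.50 ± 0.09 SE, adjusted p = 0.000315), and under library totals it was at 0.08 and no longer called. NDUFA10, a subunit with a fold like that of nucleoside kinases, went from 70.8 ± 4.03 to 83.8 ± 1.69 CPM (0.25 ± 0.07 SE, adjusted p = 0.00798) but was called lower under library totals, at −0.17 (adjusted p = 0.0392). It was not called under upper-quartile scaling (0.13) or with no filter on low counts (0.22). NDUFS5, another cysteine-rich subunit, had overlapping groups, at 112, 108 and 90.7 CPM against 106, 126 and 131 CPM, and an adjusted p of 0.0492. Its value turned to −0.19 under library totals, and the call was lost without any of 10 of the 12 libraries.

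The 10 membrane subunits that were not called had log2 fold changes between −0.36 for NDUFB3 and 0.27 for NDUFB2. Without vehicle library 1, 3 of them were called higher, NDUFB2 at 0.48 (adjusted p = 0.0467), NDUFB1 at 0.36 (adjusted p = 0.0386) and NDUFA1 at 0.30 (adjusted p = 0.0441). Other omissions gave calls on the lower side. NDUFB3 was at −0.53 (adjusted p = 0.00926) without vehicle library 2 and NDUFB8 at −0.24 (adjusted p = 0.0314) without vehicle library 3. NDUFB5 was at −0.22 (adjusted p = 0.0355) without anticarin-beta library 1. NDUFB8, often used as a protein marker of complex I, was at −0.13 with all libraries kept, with 41.6, 38.3 and 32.5 CPM against 33.3, 32.5 and 36.8 CPM. Of the 10, NDUFB6 and NDUFC1 turned from 0.16 and 0.02 to −0.26 and −0.40 under library totals and were called lower there. NDUFA13 (−0.44), NDUFB3 (−0.78), NDUFB5 (−0.56) and NDUFB8 (−0.55) were also called lower under library totals. Upper-quartile scaling called NDUFB3, NDUFB5 and NDUFB8 lower, while RLE scaling called NDUFA1 and NDUFB1 higher.

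NDUFAB1, the mitochondrial acyl carrier protein, serves both arms and also fatty acid synthesis and the making of iron-sulphur clusters. It rose from 79.9, 70.3 and 68.2 CPM to 101, 99.8 and 101 CPM (0.47 ± 0.08 SE, 1.38-fold, adjusted p = 0.000193). The treated libraries all lay above the vehicle ones, and under library totals the value was 0.05 and no longer called. NDUFA4, first purified with complex I and later placed in cytochrome c oxidase, was at 95.2, 100.4 and 84.6 CPM and then 88.0, 145 and 134 CPM. The groups overlapped, its call (0.39 ± 0.15 SE, adjusted p = 0.0345) was lost without any vehicle library and without anticarin-beta library 2 or 3, and it turned to −0.029 under library totals. Its relative NDUFA4L2, known as a gene induced by low oxygen, was close to the floor, between 0.129 and 1.59 CPM over the 12 libraries, and was not called (0.73 ± 0.49 SE, adjusted p = 0.194).

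Of the 7 NDUFAF assembly factors, 6 fell and 0 rose, where 38.0% of all genes tested fell and 34.9% rose. The median of the 7 was −0.93. None was higher at an unadjusted p under 0.05, nor by DESeq2 or limma-voom. NDUFAF6, needed for the making of a mitochondrially encoded subunit, went from 22.2, 20.9 and 20.4 CPM to 6.37, 6.19 and 4.94 CPM, a fall of 3.63-fold (−1.86 ± 0.12 SE, adjusted p = 2e-08). A processed pseudogene overlaps its exons on the other strand. NDUFAF1, which works in the assembly of the membrane arm together with ACAD9, went from 19.5, 17.6 and 14.6 CPM to 4.86, 5.91 and 4.85 CPM. It fell 3.31-fold without overlap (−1.72 ± 0.15 SE, adjusted p = 3.21e-07), at chr15:41387349-41402519 on the minus strand.

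NDUFAF3 and NDUFAF4, partners in the ubiquinone module, both fell. NDUFAF4 went from 17.1, 10.3 and 11.4 CPM to 6.29, 6.28 and 7.78 CPM (−0.93 ± 0.20 SE, adjusted p = 0.000861). NDUFAF3 went from 24.1 ± 1.41 to 14.8 ± 2.18 CPM (−0.70 ± 0.11 SE, adjusted p = 6.37e-05). NDUFAF5, which hydroxylates NDUFS7, went from 15.7, 16.2 and 12.4 CPM to 7.46, 7.58 and 8.20 CPM (−0.93 ± 0.16 SE, adjusted p = 0.000158). NDUFAF7, a methyltransferase, had the smallest fall, from 15 ± 0.995 to 11.7 ± 0.75 CPM (−0.35 ± 0.13 SE, adjusted p = 0.0228), and its call was lost without vehicle library 2 or anticarin-beta library 1 or 3. NDUFAF2, a relative of NDUFA12 that leaves when NDUFA12 joins, was at 18.1 ± 1.96 and 17.6 ± 1.77 CPM with overlapping groups and was not called (−0.03 ± 0.11 SE).

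**Figure D3:**
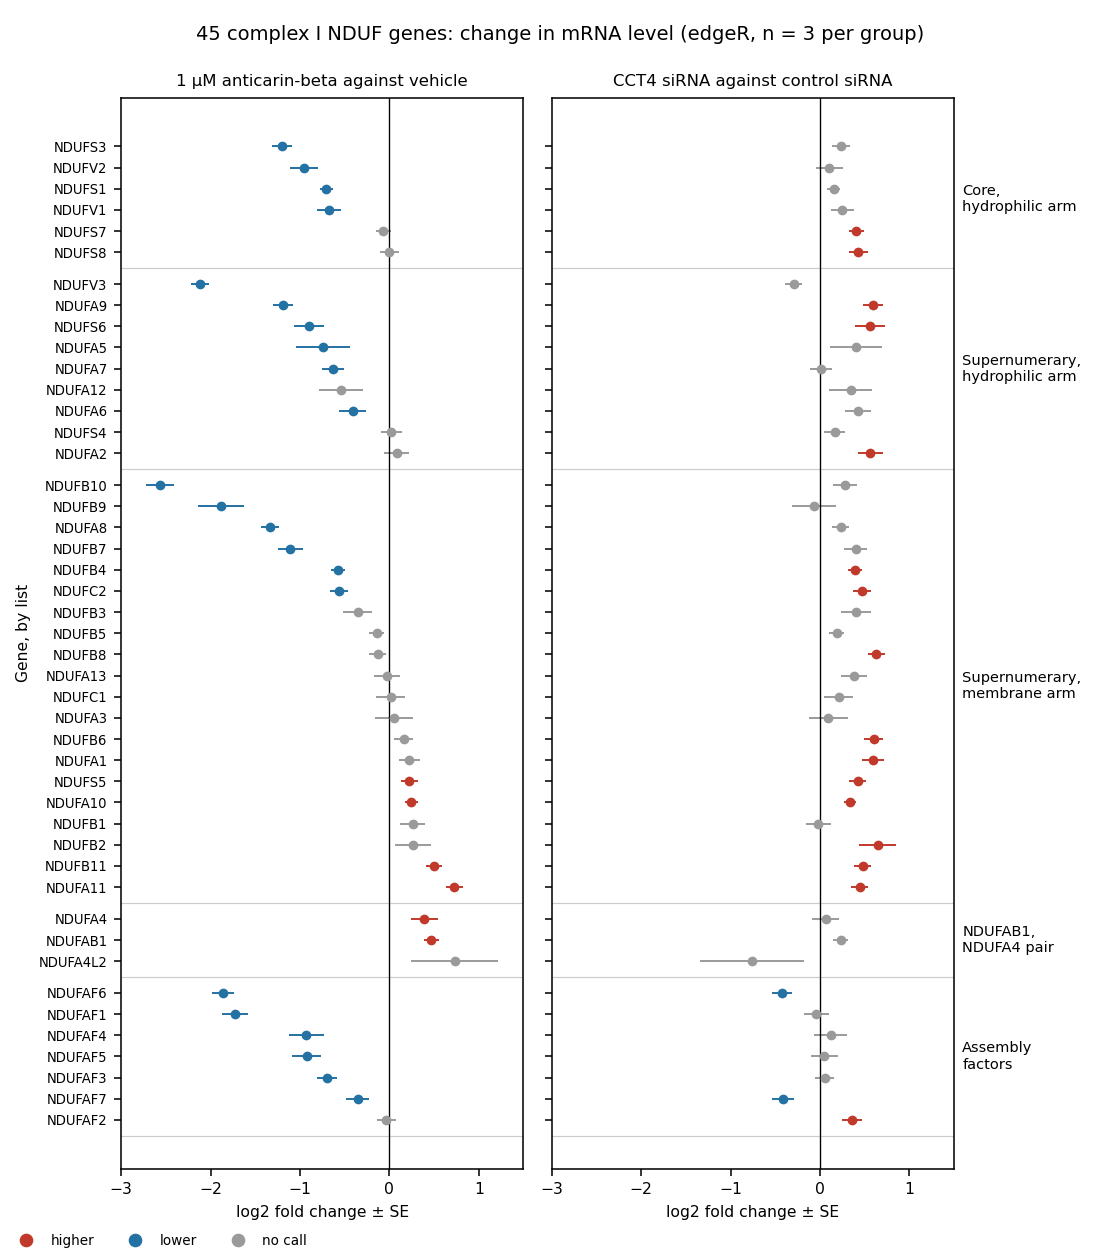
Log2 fold change ± SE of 45 of the 46 complex I genes by role, for 1 µM anticarin-beta against vehicle (left) and the libraries labelled CCT4 siRNA against control siRNA (right), with red for higher, blue for lower and grey for not called. The falls with anticarin-beta reach −2.57 in NDUFB10 and −2.12 in NDUFV3, while in the siRNA comparison the called values lie within 0.65 of 0.

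Together the 46 genes held 0.222% ± 0.023 of all counts with vehicle and 0.131% ± 0.003 with anticarin-beta (SD, n = 3). The lowest vehicle library, at 0.200%, lay above the highest treated library, at 0.134%. This share is of unscaled library totals. After TMM scaling the summed level was 2059 ± 188 CPM with vehicle and 1626 ± 38.7 CPM with anticarin-beta (SD, n = 3), a smaller gap, again without overlap. With 3 libraries against 3, an exact permutation test cannot give a two-sided p below 0.1. Per kilobase of the main transcript, NDUFS5 was the highest member with vehicle, at 189 CPM per kilobase, before NDUFS6 at 110.4 ± 30.7, NDUFB7 at 104 ± 9.13 and NDUFB9 at 98 ± 25.7 (SD, n = 3). Those last 3 did not differ beyond their spread. Apart from NDUFA4L2, the lowest were the assembly factors NDUFAF5, at 2.67 CPM per kilobase, and NDUFAF4, at 5.39 CPM per kilobase. The order shifted with the compound. Out of 46 places, NDUFB10 went from place 7 to 32 and NDUFB9 from 4 to 22, while NDUFA11 went from 8 to 2.

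The levels of the members also spread apart. Leaving out NDUFA4L2, the SD of the log2 level per kilobase over 45 genes was 1.33 in the vehicle libraries (range 1.32 to 1.34) and 1.67 in the anticarin-beta libraries (range 1.63 to 1.69). It was 1.36 (range 1.35 to 1.38) with control siRNA and 1.45 (range 1.42 to 1.47) in the libraries labelled CCT4 siRNA. The highest gene exceeded the lowest 71.1-fold with vehicle and 157-fold with anticarin-beta. The same measures were not taken over all genes, so this spreading is not shown to be particular to the members. With anticarin-beta the log2 fold changes of all genes tested had quartiles of −1.04 and 0.83, wider than the −0.93 and 0.08 of the members. Across the 45 genes, the log2 fold change with the compound had a Pearson correlation of 0.16 with the mean log2 level and −0.11 with the log2 length of the gene on the chromosome, from genes that share the same 12 libraries.

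In the siRNA comparison the target comes first. CCT4 mRNA was at 186, 160.2 and 185 CPM with control siRNA and at 201, 199.6 and 216 CPM in the libraries labelled CCT4 siRNA. It was not lower there (log2 fold change 0.22, 95% interval 0.01 to 0.43), which goes against the label, and the difference had an adjusted p of 0.129. With anticarin-beta, CCT4 fell from 258, 238 and 212 CPM to 86.8, 87.5 and 72.5 CPM (−1.52 ± 0.10 SE, adjusted p = 1.84e-08).

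Against control siRNA, 16 of the 46 genes (34.8%) were higher and 2 (4.35%) were lower in the libraries labelled CCT4 siRNA. Over all genes tested, edgeR called 10.7% higher and 9.04% lower, 19.7% in all. The share of members that rose was above that background. The median log2 fold change was 0.27 over the members and 0.01 over all genes, and no member passed 2-fold. No member was called by edgeR's test against a 1.5-fold change in either direction, also at an unadjusted p under 0.05. The groups did not overlap for 25 members on the higher side and 3 on the lower side, against 21.7% and 20.1% of all genes. Library totals alone gave 10 higher and 3 lower members, where edgeR called 5.09% of all genes higher and 15.8% lower. The members then had a median of 0.13 where that of all genes was −0.12. Relative to all genes the members' median was 0.26, a value that a change of scaling can hardly move.

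Of the 20 membrane-arm genes, 10 rose and 0 fell, where 10.7% of all genes tested were higher and 9.04% lower. The median of the 20 was 0.39. Library totals alone gave 8 higher with a median of 0.26, where 5.09% of all genes were higher. None of the 20 was lower at an unadjusted p under 0.05, by DESeq2 or by limma-voom. NDUFB8 had the smallest p, with 22.7, 22.1 and 22.8 CPM in the control libraries and 33.0, 36.1 and 35.6 CPM in the libraries labelled CCT4 siRNA. The groups lay well apart at a difference of 1.55-fold (0.63 ± 0.10 SE, adjusted p = 0.000988), though HIF1AN overlaps its exons on the other strand and a protein-coding gene known by a clone name on the same one. NDUFB6 went from 15.8, 18.8 and 18.8 CPM to 26.2, 25.7 and 29 CPM (0.60 ± 0.11 SE, adjusted p = 0.00263), and NDUFA1, a small subunit of the membrane domain, from 19.7, 26.4 and 23.7 CPM to 36.2, 33.0 and 36.2 CPM (0.59 ± 0.12 SE, adjusted p = 0.00518). Neither overlapped between the groups, and both share exons with a gene on the other strand, SMIM27 and RNF113A.

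NDUFB11 and NDUFB4 rose less. NDUFB11 went from 51.3, 45.6 and 44.4 CPM to 65.5, 66.4 and 64.6 CPM (0.48 ± 0.09 SE, adjusted p = 0.00422). NDUFB4 went from 45.2, 44.6 and 49.6 CPM to 57.5, 60.8 and 64.4 CPM (0.39 ± 0.08 SE, adjusted p = 0.00437). The other membrane subunits called higher were NDUFS5, NDUFA10, NDUFA11, NDUFB2 and NDUFC2. The read-through gene NDUFC2-KCTD14, which shares exons with NDUFC2, had 26, 31 and 76 counts with control siRNA. In the libraries labelled CCT4 siRNA it had 183, 130 and 82 counts, so the count of NDUFC2 is uncertain. NDUFB2 had an adjusted p of 0.047, and its call was lost under each of the other 3 scalings and without any of 9 of the 12 libraries, vehicle 1 and 2 and control siRNA 3 being the exceptions.

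In the hydrophilic arm 5 of 16 genes rose, with a median of 0.30, and 0 fell by edgeR with TMM scaling. Over all genes tested, 10.7% were higher and 9.04% lower. NDUFV3 was lower at an unadjusted p under 0.05 and was called lower by DESeq2 and by limma-voom. By edgeR it was also called lower under RLE, upper-quartile and library-total scaling (adjusted p = 0.0486, 0.0385 and 0.00857). NDUFA9 went from 29.3, 28.8 and 36.6 CPM to 46.4, 48.1 and 48.2 CPM (0.59 ± 0.11 SE, adjusted p = 0.00391). NDUFS7 went from 29.4, 26.5 and 30.7 CPM to 41.5, 36.5 and 36.7 CPM (0.41 ± 0.09 SE, adjusted p = 0.0066). These groups did not overlap. NDUFS8 went from 45.3, 37.2 and 36.6 CPM to 56.7, 48.4 and 55.1 CPM (0.43 ± 0.11 SE, adjusted p = 0.0149). Its call, and those of NDUFS6 (0.56, adjusted p = 0.0346) and NDUFA2 (0.56, adjusted p = 0.0167), were lost under library totals. They were also lost without control library 2 or 3 or CCT4 siRNA library 1 or 3 for NDUFS8, without control library 1 or 2 or CCT4 siRNA library 1, 2 or 3 for NDUFS6, and without control library 1 or 2 or CCT4 siRNA library 1 for NDUFA2. The log2 fold changes over these settings ran from 0.30 to 0.62. NDUFV1, NDUFV2, NDUFS1 and NDUFS3 had log2 fold changes of 0.25, 0.10, 0.15 and 0.24 and were not called.

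The assembly factors did not move as a group, with 1 higher, 2 lower and 4 not called, and a median of 0.05 that turned to −0.08 under library totals. Over all genes tested, 10.7% were higher and 9.04% lower. NDUFAF6 went from 14.7, 16.0 and 15.7 CPM to 12.4, 11.8 and 10.4 CPM (−0.43 ± 0.11 SE, adjusted p = 0.0208). NDUFAF7 went from 18.6, 17.4 and 14.3 CPM to 12.0, 14.1 and 11.6 CPM (−0.41 ± 0.12 SE, adjusted p = 0.0346). The groups did not overlap for either gene. The call of NDUFAF6 was lost without control library 2 or 3 or CCT4 siRNA library 2 or 3, at −0.44 to −0.36, and that of NDUFAF7 without control library 1 or 2 or CCT4 siRNA library 1 or 3, at −0.39 to −0.33. NDUFAF2 was higher at 0.36 (adjusted p = 0.035), a call lost without any library of the siRNA experiment. NDUFAF1, NDUFAF3, NDUFAF4 and NDUFAF5 were not called, at −0.04 to 0.12. NDUFAB1, NDUFA4 and NDUFA4L2 were not called either, at 0.23, 0.06 and −0.76. The 46 genes held 0.179% ± 0.003 of counts with control siRNA and 0.199% ± 0.003 in the libraries labelled CCT4 siRNA (SD, n = 3), and after TMM scaling 1601 ± 27.5 and 1946 ± 33.7 CPM. Leaving out vehicle library 1, which is in neither siRNA group but in the same fit, NDUFB7 (0.40, adjusted p = 0.049) and NDUFAB1 (0.23, adjusted p = 0.0368) were called higher and NDUFV3 (−0.29, adjusted p = 0.0483) lower.

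The responses were compared directly in the same fit, as the change with anticarin-beta minus the change in the siRNA experiment. On this contrast 30 of the 46 genes (65.2%) were lower and 0 were higher by edgeR, against 32.4% and 27.5% of all genes, 59.9% in all. At an unadjusted p under 0.05 the count on the higher side was also 0, limma-voom gave 0 and DESeq2 gave 2. The median was −0.75 over the members and −0.09 over all genes. All 7 core subunits were on the lower side, among them NDUFS3 at −1.44 and NDUFS8 at −0.43. So were 7 of 9 supernumerary subunits of the hydrophilic arm, 10 of 20 of the membrane arm and 6 of 7 NDUFAF factors. The call of NDUFS8 was lost without anticarin-beta library 1 or 2, control siRNA library 2 or 3 or CCT4 siRNA library 1. It was also lost under RLE scaling (adjusted p = 0.0542) and by DESeq2 (adjusted p = 0.055), each of which called 6 of the 7 core subunits. Without vehicle library 1 the calls of NDUFA5 (adjusted p = 0.0796), NDUFA12 (adjusted p = 0.111), NDUFB5 (adjusted p = 0.0509) and NDUFAF2 (adjusted p = 0.0804) were lost, and NDUFAB1 was called higher (0.30, adjusted p = 0.0284). The experiments differ in agent, duration and control, whose parts in this contrast cannot be told apart.

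NDUFB10 gave the widest difference, at −2.85 ± 0.20 (SE, adjusted p = 1.29e-07). NDUFA9, NDUFS6, NDUFB4 and NDUFC2 fell in the compound comparison and rose in the siRNA comparison, with differences of −1.78, −1.46, −0.97 and −1.04 that were all called. NDUFA10, NDUFA11, NDUFB11 and NDUFS5 were called higher in both, and their differences, from −0.20 for NDUFS5 to 0.28 for NDUFA11, were not called. The 95% interval of that difference ran from −0.49 to 0.09 for NDUFS5 and from −0.004 to 0.57 for NDUFA11. NDUFAF6 and NDUFAF7 were called lower in both. For NDUFAF6 the difference was −1.43 (adjusted p = 8.64e-06), and for NDUFAF7 it was 0.06 (adjusted p = 0.787). A further 17 genes fell with the compound and were not called in the siRNA comparison, 8 were called higher in the siRNA comparison alone, 2 rose with the compound alone and 9 were called in neither. Across the 45 genes without NDUFA4L2 the changes had a Pearson correlation of 0.45 and a Spearman correlation of 0.41, over genes that share the same libraries.

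**Figure D4:**
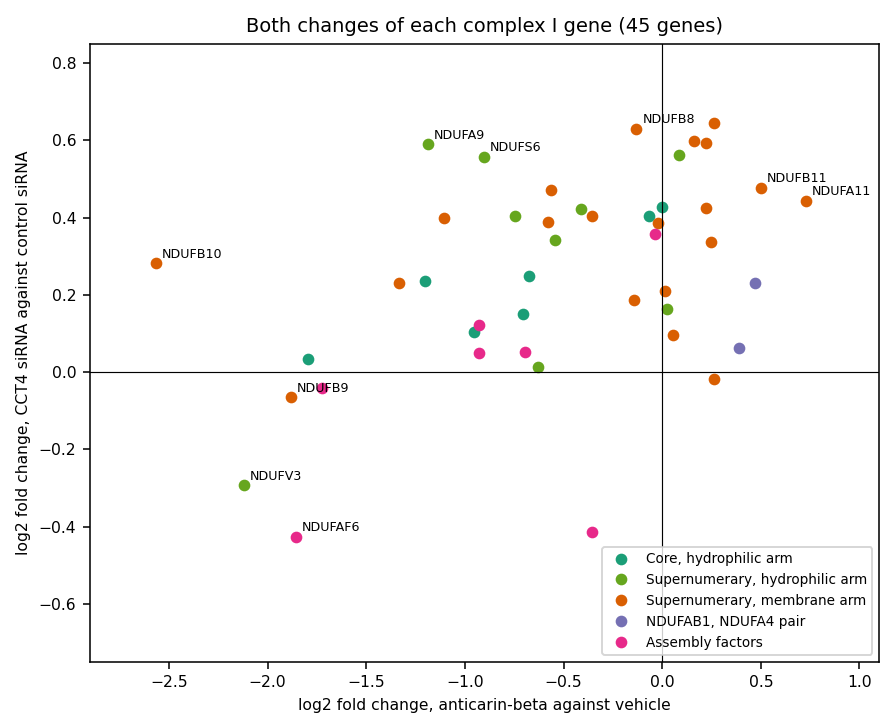
Log2 fold change of 45 complex I genes with anticarin-beta (horizontal) and in the libraries labelled CCT4 siRNA (vertical), coloured by role, NDUFA4L2 left out for its low counts. Most points lie above 0 on the vertical axis, and those farthest to the left, NDUFB10 at −2.57 and NDUFV3 at −2.12, have vertical values of 0.28 and −0.29.

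Shared exons limit the counts of some members. In GENCODE release 29, 13 of the 46 share exons with a gene on the same strand and 21 with a gene on the other strand, and no source at hand states whether the counting used strand. Among the 20 with neither kind of overlap, 11 fell and 4 rose with anticarin-beta, where 38.0% of all genes tested fell and 34.9% rose. In the siRNA comparison 5 of the 20 rose and 0 fell by edgeR, where 10.7% of all genes tested rose and 9.04% fell. NDUFV3, which has neither kind of overlap, was called lower there under RLE, upper-quartile and library-total scaling.

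All 7 mitochondrially encoded subunits fell with anticarin-beta, where 38.0% of all genes tested fell, and their median log2 fold change was −2.46. MT-ND4 went from 6035, 6289.9 and 5918 CPM to 821, 898 and 949 CPM, 6.84-fold lower (adjusted p = 6.08e-12). MT-ND3 fell 10.1-fold and MT-ND6, the subunit encoded on the opposite strand of the mitochondrial DNA, 11.1-fold. MT-ND5 fell 5.49-fold, and MT-ND1 and MT-ND2 fell least, at −1.08 and −0.92. In the siRNA comparison 5 of the 7 fell, against 9.04% of all genes tested, MT-ND1 and MT-ND2 being the exceptions at −0.15 and 0.04. The median of the 7 was −0.77. There the median of the mitochondrially encoded subunits was below 0 and that of the 46 nuclear genes above it. MT-ND4 was at 2738, 2801 and 2671 CPM with control siRNA and 1579, 1567 and 1575 CPM in the libraries labelled CCT4 siRNA.

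Of 12 assembly factors with other names, 7 fell and 2 rose with anticarin-beta, where 38.0% of all genes tested fell and 34.9% rose. The median of the 12 was −0.80. ACAD9, the partner of NDUFAF1, went from 54.2, 51.5 and 52.8 CPM to 16.4, 18.5 and 17.7 CPM, 3.01-fold lower without overlap (−1.59 ± 0.08 SE, adjusted p = 1.39e-09). TIMMDC1, which helps to build the inner part of the membrane arm, fell 2.92-fold (adjusted p = 7.7e-08), COA1 1.81-fold and NUBPL, which supplies iron-sulphur clusters to complex I, 2.30-fold. ECSIT and TMEM126B, which work in the same assembly as NDUFAF1 and ACAD9, were the 2 that rose, at 0.66 and 0.30, and were named after their values were seen. In the siRNA comparison 2 of 12 fell, COA1 and TMEM186, a count too small to set apart from the 9.04% of all genes tested that were lower.

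Of 14 genes for the making of iron-sulphur clusters, 7 fell with anticarin-beta and 1 rose, where 38.0% of all genes tested fell and 34.9% rose. NFS1, the desulphurase that provides the sulphur, went from 50.1, 40.5 and 38.2 CPM to 10.7, 8.6 and 8.28 CPM, 4.67-fold lower (−2.22 ± 0.16 SE, adjusted p = 6.95e-08). BOLA3 and NFU1, which act late in that path, fell 3.61-fold and 2.93-fold, and IBA57, also a late factor, rose 2.04-fold (adjusted p = 3.22e-06). In the siRNA comparison, where 10.7% of all genes tested were higher, only GLRX5 of the 14 passed the test, upward, with an adjusted p of 0.0486. None of the 14 was called higher under any of the other 3 scalings.

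Of 12 regulators of nuclear respiratory genes, 7 rose and 2 fell with anticarin-beta, where 34.9% of all genes tested rose and 38.0% fell. The median of the 12 was 0.80, against −0.38 for the complex I genes. PPRC1, a coactivator related to PGC-1 alpha, went from 86.5, 68.7 and 68.0 CPM to 272, 258 and 275 CPM, 3.6-fold higher (1.85 ± 0.09 SE, adjusted p = 1.4e-09). TFB2M, which starts mitochondrial transcription, went from 36.3, 25.7 and 28.0 CPM to 129, 126 and 131 CPM, and TFAM, which packs and transcribes mitochondrial DNA, rose 1.88-fold. POLRMT, the mitochondrial RNA polymerase itself, fell from 45.3, 40.7 and 37.1 CPM to 9.90, 8.69 and 10.4 CPM (−2.09 ± 0.11 SE, adjusted p = 3.57e-09). NRF1 and GABPA, whose letters were counted in the promoters above, rose by 0.89 and 0.71 on the log2 scale, and YY1 was not called at 0.05. In the siRNA comparison 1 of the 12 rose, TFB2M, and 2 fell, TFB1M and GABPB1. These counts are too small to set apart from the 10.7% of all genes tested that rose and the 9.04% that fell.

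**Figure D5:**
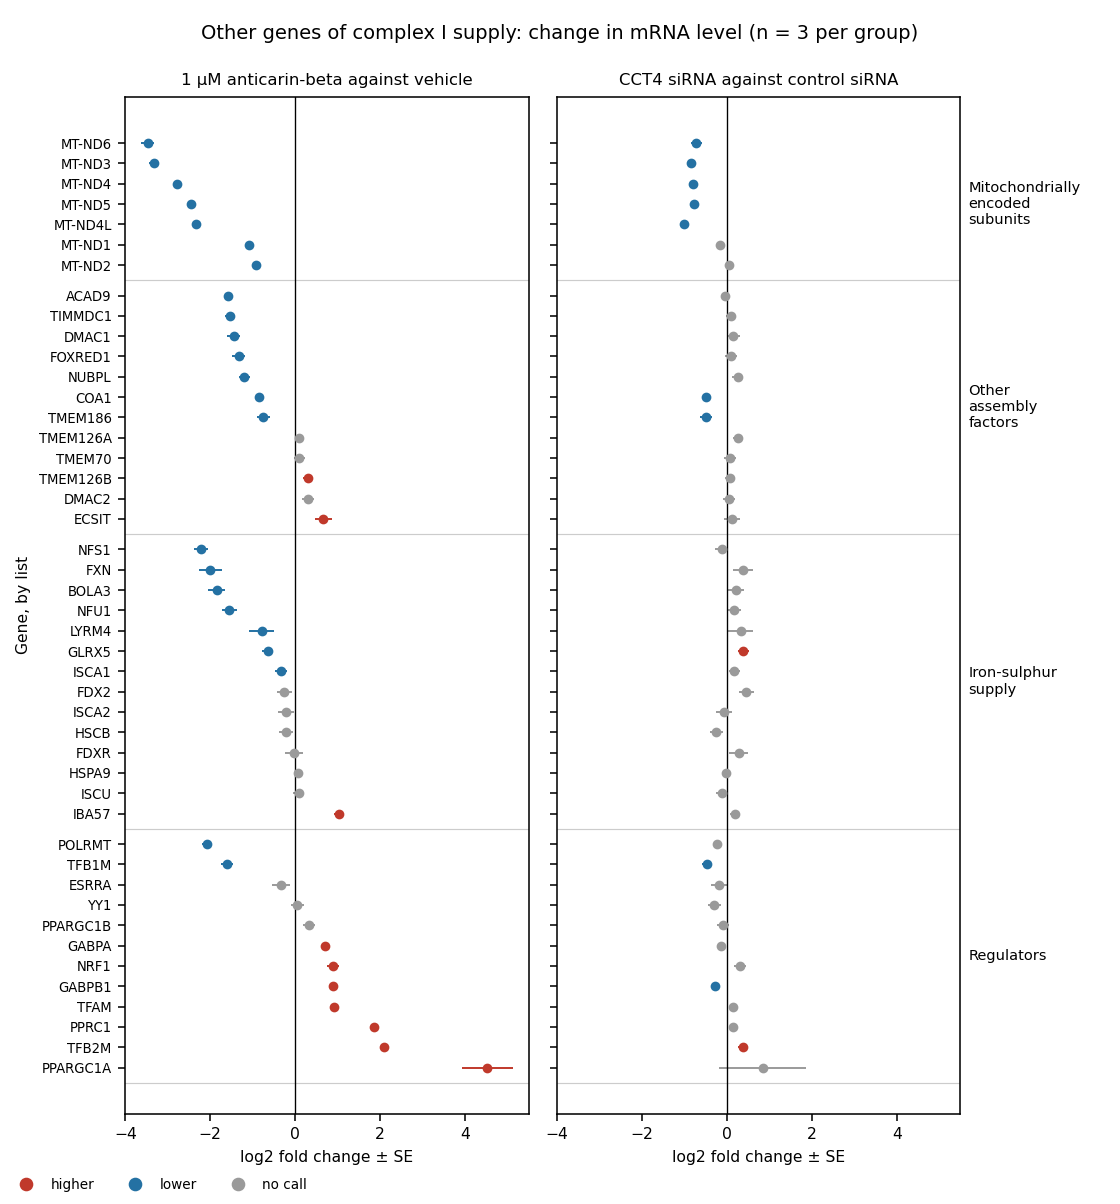
Log2 fold change ± SE of mitochondrially encoded subunits, other assembly factors, iron-sulphur supply genes and regulators, drawn as for the members, with red for higher, blue for lower and grey for not called. With anticarin-beta the mitochondrially encoded subunits lie between −3.48 and −0.92, and 7 of 12 regulators were called higher, against 34.9% of all genes tested.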

How the data were processed

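The authors deposited raw read counts per gene in 1 table of 50868 genes for 12 libraries, neither normalized nor pooled. STAR 2.5.2a, featureCounts 1.5.0, Subread and the hg38 build are named per the submitters' processing notes, and the kit was stranded, per the labels' protocols. No source at hand gives the annotation release or the strand setting of the counting. Groups and replicate numbers came from the labels.

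A quasi-likelihood fit in edgeR 4.0.16 (R 4.3.3) used TMM factors, genes kept by filterByExpr, and a mean for each of the 4 groups, with 8 residual degrees of freedom. Its two-sided p-values were adjusted by Benjamini-Hochberg across 17717 genes, and an adjusted p under 0.05 made a call. The script was tested on simulated data. GENCODE release 29 (GRCh38), which holds 98.5% of the gene identifiers, gave positions and exon overlaps, and RefSeq on GRCh38.p14 gave promoter windows. Levels per kilobase used the length of the main transcript.

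The members and lists were chosen with earlier results of these data known. Described singly were, with anticarin-beta, up to 8 called members in each direction with the largest change, at least 5 CPM in the higher group and no overlap, up to 6 in each direction by p in the siRNA comparison, the core subunits, all NDUFAF factors, NDUFA4, NDUFA4L2, and up to 4 genes by p of each other list. A single member is counted with the others and not reported singly here. Other genes named were chosen after their values were seen. Alternatives were other scalings, DESeq2 1.42.0, limma-voom (limma 3.58.1), other filters and thresholds, each experiment alone, a replicate block and the omission of each library.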

Additional observations from a re-analysis of the deposited data

How the results depend on the processing

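Of 29 members called with anticarin-beta, 16 kept their call under every alternative run, 22 under the other scalings and 24 when each library was left out in turn. Of 18 called in the siRNA comparison, 0 kept it under every alternative, since the test against a 1.5-fold change removed all. In that comparison 12 kept it under the other scalings and 11 when each library was left out. Under library totals the compound comparison gave 1 higher and 36 lower members with a median of −0.80, the siRNA comparison 10 higher with a median of 0.13, and the difference a median of −1.04. There NDUFA10 (−0.17), NDUFA4 (−0.029), NDUFA2 (−0.33), NDUFB6 (−0.26), NDUFC1 (−0.40), NDUFS4 (−0.40) and NDUFS5 (−0.19) turned to lower values with anticarin-beta. Upper-quartile scaling gave 3 higher with a median of −0.50, and RLE scaling 8 higher with a median of −0.32. RLE and DESeq2 each called 2 members higher in the difference.

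Tested against a 1.5-fold change, 1 member was higher and 15 lower with the compound, 0 and 0 in the siRNA comparison and 18 lower in the difference. The 2 members called lower in the siRNA comparison became 0 with no filter, 1 with each experiment alone, 0 with the replicate block and 0 at a threshold of 0.01, while 3 had an unadjusted p under 0.05 in each of these. The replicate numbers did not pair the libraries, since the deviations of same-numbered libraries correlated between −0.03 and 0.03. The block gave 5 higher and 23 lower with the compound and 15 higher in the siRNA comparison.

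Leaving out each library in turn gave 4 to 8 higher and 20 to 25 lower with the compound, 12 to 18 higher and 0 to 3 lower in the siRNA comparison, and 0 to 2 higher and 26 to 31 lower in the difference. The medians ran from −0.50 to −0.35, 0.25 to 0.32 and −0.79 to −0.66. Without mitochondrially encoded genes in the total, the members' share was 0.233% with vehicle, 0.133% with anticarin-beta, 0.183% with control siRNA and 0.201% in the libraries labelled CCT4 siRNA. At 13393750 to 17492095 counts a library, depth limits NDUFA4L2, which had 2 counts in its lowest library. The causes of these shifts were not tested.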
